A study of Homo sapiens with 9 samples.

Results

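Expression of 10 genes that encode amino acid transporters of the plasma membrane was followed in MEC1, an established cell line derived from chronic lymphocytic leukemia (CLL). The members were chosen by name as carriers, and 1 partner chain of carriers, for neutral, cationic and sulphur-containing amino acids: SLC7A5, SLC3A2, SLC7A11, SLC1A5, SLC1A4, SLC38A1, SLC38A2, SLC7A1, SLC43A1 and SLC7A6. These members and all gene lists below were chosen with earlier results of these data known. Their counts beside the shares over all genes are therefore a description. They are 10 of the 59050 genes in the count table, and all 10 were among the 13463 genes retained after the filter on low counts. RNAseq covered 9 samples of this 1 line in 3 groups of 3 replicates: cells in conventional 2D culture, cells bioprinted in a hydrogel scaffold and harvested at day 7 (3D_7d), and cells from the same kind of scaffold at day 14 (3D_14d). RNA of the scaffolds went through TRIzol, DNase I and then a column kit. RNA of the 2D cells went through the column kit alone, with DNase among its washes. Extraction and culture therefore cannot be told apart in 3D vs 2D. The labels give no culture day for 2D, and both time points are compared with the same 2D samples, so 3D culture and time in culture cannot be told apart either. Nothing in the labels says whether replicates were separate cultures, and p-values therefore measure only the spread between these samples. In the edgeR fit this spread was estimated over all 3 groups together. The p-values of 3D_7d vs 2D thus also carry the spread within 3D_14d. The question put to the data was whether, and at which time, the mRNA of these carriers differed between 3D and 2D culture.

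Amino acids cross the plasma membrane through carriers that differ in what they move and in what drives them. Members of the SLC7 family such as SLC7A5, SLC7A6 and SLC7A11 are light chains that reach the cell surface only when bound to the heavy chain SLC3A2 (CD98), and they exchange one amino acid for another. SLC1A5 and SLC1A4 exchange small neutral amino acids together with sodium, SLC38A1 and SLC38A2 concentrate glutamine and other neutral amino acids with the sodium gradient, and SLC7A1 and SLC43A1 work without the heavy chain. Activated and dividing lymphocytes raise several of these carriers, and the transcription factors ATF4, MYC and NFE2L2 (NRF2) are known regulators of some of them.

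The DNA just upstream of the start site is shown for 3 members whose RNA was lower at both time points. They are the light chain SLC7A5, its heavy chain SLC3A2 and the independent carrier SLC43A1. This DNA shows which of 3 known factor-binding letter patterns these starts hold. The sequences run 5′ to 3′ on the strand of the gene, are from RefSeq on GRCh38.p14, and hold the 250 bases before the start site. None of these bases is in an annotated exon of the same gene, and exons of other genes were not checked. Capitals mark the E-box CACGTG, the letters that MYC recognises, in SLC7A5 and SLC43A1, and the antioxidant response element TGACNNNGC, the letters recognised by NFE2L2, in SLC3A2.
SLC7A5 (chr16:87869508-87869757, minus strand): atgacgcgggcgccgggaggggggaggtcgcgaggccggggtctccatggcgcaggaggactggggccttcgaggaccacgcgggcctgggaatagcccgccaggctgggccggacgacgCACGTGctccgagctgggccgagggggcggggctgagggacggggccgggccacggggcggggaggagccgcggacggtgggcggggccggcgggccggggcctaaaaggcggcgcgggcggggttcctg
SLC43A1 (chr11:57515703-57515952, minus strand): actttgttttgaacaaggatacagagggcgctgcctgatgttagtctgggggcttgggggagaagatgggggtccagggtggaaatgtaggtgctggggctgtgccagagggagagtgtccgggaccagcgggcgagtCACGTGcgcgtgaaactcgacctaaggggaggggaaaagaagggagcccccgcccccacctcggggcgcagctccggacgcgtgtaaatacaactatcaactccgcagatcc
SLC3A2 (chr11:62881449-62881698, plus strand): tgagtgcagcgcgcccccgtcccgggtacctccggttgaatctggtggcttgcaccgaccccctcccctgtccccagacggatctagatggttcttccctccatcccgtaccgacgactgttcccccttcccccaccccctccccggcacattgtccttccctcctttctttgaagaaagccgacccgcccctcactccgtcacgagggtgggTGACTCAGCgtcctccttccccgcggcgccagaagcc
The E-box lay 130 to 125 bases before the start of SLC7A5 and 112 to 107 bases before that of SLC43A1, and the antioxidant element lay 37 to 29 bases before this start of SLC3A2. RefSeq promoters were matched by symbol for 9 of the 10 members, with 16 promoters in all, and not for SLC7A11. On both strands, the E-box was in 3 of the 16 promoters (of SLC7A5, SLC43A1 and an alternative start of SLC1A5), beside 6.34% of all 35116 promoters searched over the same 250 bases. That SLC1A5 start lies 1301 bases inside the gene, with 193 of its 250 upstream bases in SLC1A5 exons. The antioxidant element was in 4 of 16 (the same alternative start of SLC1A5, and SLC3A2, SLC7A1 and SLC7A6), beside 10.9% of all. The amino acid response element TGATGNAA, the letters recognised by ATF4, was in 1 of 16 (another alternative start of SLC1A5, as TGATGCAA, 97 to 90 bases before the start), beside 3.14% of all. The SLC1A5 and SLC3A2 starts nearest to where the count table begins these genes held none of the patterns. Neither did the remaining SLC3A2 start or the other SLC43A1 start. No match overlapped another pattern. A match is a description of letters, and binding was not measured here.

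The libraries held 54662799 to 85968686 counts assigned to genes. The members took 0.272% to 0.285% of the counts in 2D, 0.114% to 0.122% in 3D_7d and 0.107% to 0.176% in 3D_14d. The 3D_14d replicate 1 stood apart: its chi-square per gene against the other 3D_14d libraries was 254 and 306, while those 2 differed by 155 and the pairs within 2D or 3D_7d by 22.5 to 82.0, all above counting noise. The fold changes of the members in 3D_14d vs 2D are therefore given with and without it. Other 3D_14d values include it unless stated. The 5 B cell markers MS4A1, CD79A, CD79B, PAX5 and CD22 were above 1 CPM (counts scaled to library size) in every sample, with sums of 2060.4 to 2127 CPM in 2D, 2358 to 2937 in 3D_7d and 3041 to 3292 in 3D_14d. Of 6 T cell markers 1, TRAC, was above 1 CPM, the sums being 312 to 357, 460.2 to 489 and 528 to 718 CPM, with CD3D at 0 in 2D and 3D_14d. Sums in the 3 groups were 1.41 to 1.63, 0.840 to 1.28 and 1.85 to 4.69 CPM for the 3 NK cell markers, at most 0.883 CPM for the 3 monocyte markers (LYZ at 0 in 2D and 3D_14d), 6.81 to 7.48, 1.73 to 4.64 and 1.58 to 4.89 CPM for the 3 fibroblast markers, and 0.198 to 0.342, 1.30 to 2.19 and 2.34 to 4.45 CPM for the 3 erythroid markers. The share of counts from ribosomal protein genes was 4.10% to 4.82% in 2D, 1.66% to 1.82% in 3D_7d and 1.88% to 3.27% in 3D_14d. Among 8 proliferation genes, 6 fell and 1 rose at day 7 and all 8 fell at day 14, with MKI67, a marker of cycling cells, at -1.88 and CCNB1, a mitotic cyclin, at -1.06 on the log2 scale at day 7, and the mitotic kinases CDK1 and AURKA at -1.74 and -1.30 at day 14. Over all genes tested, 21.2% were called lower and 22.2% higher at day 7, and 17.2% lower and 19% higher at day 14. PCNA, the DNA polymerase clamp, was the gene that rose at day 7 (0.35, adjusted p = 0.0443), and this call was lost in 12 of 19 alternatives. The part of these shifts in the results below was not tested.

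Of the 10 transporter genes, 6 were down-regulated in 3D_7d vs 2D and none was up-regulated. These were the heavy chain SLC3A2, the light chains SLC7A5 and SLC7A11, the glutamine carrier SLC1A5, the arginine carrier SLC7A1 and the leucine carrier SLC43A1. Over all 13463 genes, 21.2% were called lower and 22.2% higher in this comparison (edgeR quasi-likelihood test, Benjamini-Hochberg adjusted p at most 0.05). The same 6 members were down-regulated in 3D_14d vs 2D and again none was up-regulated, where 17.2% of all genes were called lower and 19% higher. Both comparisons share the 2D samples, so their resemblance is in part built in. The median log2 fold change of the 10 members was -1.25 at day 7 and -0.79 at day 14, with medians over all genes of -0.0039 and 0.02. When a log2 fold change of -1 or lower was also required, 6 members were lower at day 7 (12.2% of all genes) and 2, SLC7A11 and SLC43A1, at day 14 (8.85% of all genes). From day 7 to day 14 directly, 4 members rose (SLC7A5, SLC3A2, SLC7A11 and SLC1A5) and 1 fell (SLC7A6), with 14.5% of all genes called higher and 13.6% lower, and a member median of 0.30. Of these, SLC7A5 and SLC7A11 rose by at least 1 on the log2 scale (7.31% of all genes), and the 1 that fell did not reach -1 (3.51% of all genes). The ranges of the 2 groups did not overlap for 8, 7 and 5 of the 10 members in the 3 comparisons, beside 64.6%, 49.7% and 39.3% of all genes. Without 3D_14d replicate 1, 5 members were lower than 2D at day 14 (SLC3A2 at -0.75, SLC7A5 at -0.66, SLC1A5 at -0.55, SLC7A1 at -0.87 and SLC43A1 at -1.41) and 1, SLC1A4, was higher, and the 5 calls between the time points remained (SLC7A5 1.38, SLC3A2 0.53, SLC7A11 2.26, SLC1A5 0.86 and SLC7A6 -0.62), with SLC38A2 added (0.55). In bulk RNA, fewer cells that express a gene and less of its RNA per cell cannot be told apart.

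**Figure D1:**
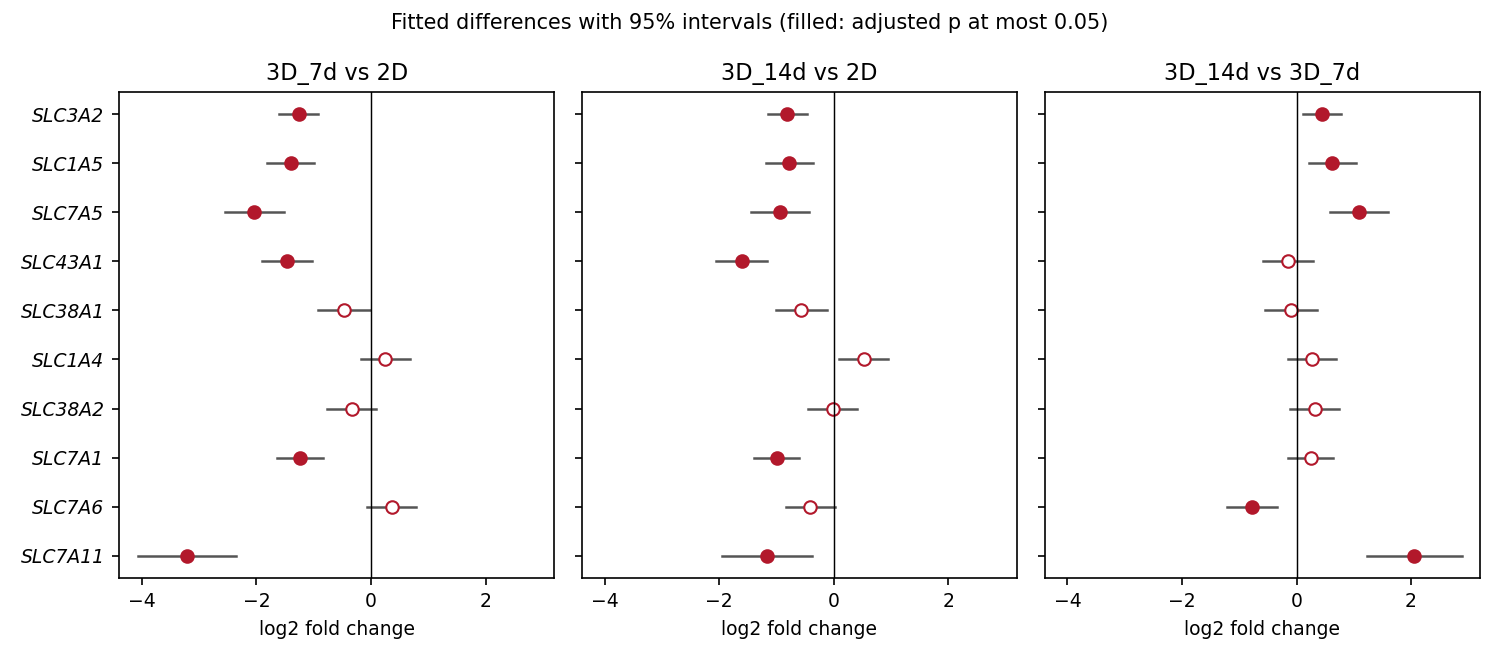
Log2 fold change of each transporter gene (rows), with 1 panel per comparison (each 3D time point against 2D, and 3D_14d against 3D_7d), 95% intervals from the edgeR fit as lines and filled points for an adjusted p of at most 0.05. The 6 filled points in each comparison with 2D all lie to the left of 0, and in 3D_14d vs 3D_7d 4 filled points lie to the right of 0 and 1 to the left.

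SLC3A2 (chr11:62856102-62888875, plus strand), the heavy chain that carries several SLC7 light chains to the surface, was the most abundant member. It was at 364, 359 and 329.7 RPKM (counts scaled to exon length and to TMM-adjusted library size) in 2D, at 129, 149 and 162 in 3D_7d and at 183, 241 and 177 in 3D_14d. The 3 groups did not overlap, with 3D_14d between the others. SLC3A2 was 2.39-fold lower at day 7 (log2 fold change -1.26, SE 0.157, adjusted p = 7.08e-05) and 1.75-fold lower at day 14 (-0.81, SE 0.155, adjusted p = 0.0017). The rise from day 7 to day 14 (0.45, SE 0.155, adjusted p = 0.0459) was near the threshold and was lost in 11 of 19 alternatives, among them the fits without any 1 of the 2D or 3D_7d replicates (0.36 to 0.55, adjusted p = 0.0574 to 0.132) and without 3D_14d replicate 2 (0.30, adjusted p = 0.113). The antioxidant element shown above is at the start site 25597 bases inside the gene as the count table places it.

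SLC7A5 (chr16:87830023-87869507, minus strand) is LAT1, the light chain that brings in leucine and other large neutral amino acids. Its level was 88.5, 94.9 and 79.4 RPKM in 2D, 20.4, 19.1 and 24.5 in 3D_7d and 27.0, 51.5 and 58.7 in 3D_14d. All 6 scaffold samples were below the lowest 2D sample, and 3D_14d replicate 1 sat just above the 3D_7d range. SLC7A5 was 4.10-fold lower at day 7 (-2.04, SE 0.241, adjusted p = 5.03e-05), 1.92-fold lower at day 14 (-0.94, SE 0.234, adjusted p = 0.0078) and 2.14-fold higher at day 14 than at day 7 (1.10, SE 0.235, adjusted p = 0.00519). All 3 calls were kept in all 19 alternatives. Without 3D_14d replicate 1, the difference from 2D was -0.66 and the rise from day 7 was 1.38.

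SLC7A11 (chr4:138164097-138242349, minus strand) is xCT, the light chain that takes up cystine for glutathione synthesis and releases glutamate. It was the least abundant member, at 1.81, 2.02 and 2.65 RPKM in 2D, 0.169, 0.39 and 0.138 in 3D_7d and 0.697, 0.801 and 1.40 in 3D_14d. The 3D_7d values rest on 94, 206 and 70 counts. The groups did not overlap, and SLC7A11 showed the largest fold of any member at day 7, 9.29-fold lower (-3.22, SE 0.395, adjusted p = 6.43e-05). It was 2.23-fold lower than 2D at day 14 (-1.16, SE 0.362, adjusted p = 0.0244) and 4.16-fold higher than at day 7 (2.06, SE 0.381, adjusted p = 0.00246). The day 14 call against 2D was lost without 2D replicate 3 (-1.02, adjusted p = 0.0883) and when 3D_14d replicate 1 (-0.97, adjusted p = 0.0594) or 3D_14d replicate 2 (-1.04, adjusted p = 0.0793) was left out.

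SLC7A6 (chr16:68264516-68301823, plus strand) is y+LAT2, a light chain that exports arginine in exchange for glutamine and sodium. It had 2.39, 2.90 and 3.45 RPKM in 2D, 3.33, 3.69 and 4.21 in 3D_7d and 1.76, 2.62 and 2.20 in 3D_14d. Both scaffold groups overlapped 2D, but every 3D_14d sample was below every 3D_7d sample. The difference from 2D was 0.36 at day 7 (95% interval -0.07 to 0.79, adjusted p = 0.157) and -0.41 at day 14 (-0.84 to 0.02, adjusted p = 0.128), and neither passed the threshold. With total counts as the scaling, the day 14 difference passed (-0.61, adjusted p = 0.0438), and without 3D_14d replicate 1 it was -0.27. The day 7 difference was 0.20 without 2D replicate 1, 0.23 without 3D_7d replicate 3 and 0.20 with total counts. The fall from day 7 to day 14 did (-0.77, SE 0.201, adjusted p = 0.0133), except without 3D_7d replicate 3 (-0.66, adjusted p = 0.0601). Of the exonic bases of SLC7A6, 58.9% are shared with the antisense genes SLC7A6OS and AC020978.9. The library kit does not mark strand, so reads from the shared bases cannot be told apart. How such reads were assigned is not given, so the RPKM of SLC7A6 may be too low or too high. SLC7A6OS itself was at 8.07 ± 0.169 RPKM in 2D, 10.3 ± 0.0244 in 3D_7d and 9.73 ± 2.27 in 3D_14d (SD, n = 3), with no call in any comparison (adjusted p = 0.12, 0.239 and 0.76).

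SLC1A5 (chr19:46774883-46788594, minus strand) is ASCT2, a sodium-dependent exchanger that takes up glutamine. It was at 131, 134 and 129 RPKM in 2D, at 46.3, 51.4 and 51.1 in 3D_7d and at 51.9, 92.6 and 85.3 in 3D_14d. No scaffold sample was within the 2D range, and 3D_14d replicate 1 exceeded the highest 3D_7d sample by less than the spread within 3D_7d. The fold changes were 2.65-fold lower at day 7 (-1.40, SE 0.19, adjusted p = 0.000122) and 1.71-fold lower at day 14 (-0.78, SE 0.187, adjusted p = 0.00647; -0.55 without 3D_14d replicate 1). SLC1A5 rose from day 7 to day 14 (0.63, SE 0.187, adjusted p = 0.0251), a call that was lost in 6 of 19 alternatives: with only the 6 samples of the comparison (adjusted p = 0.0524), without 3D_7d replicate 1, 2 or 3 (adjusted p = 0.0713, 0.0626 and 0.0574), and without 3D_14d replicate 2 or 3 (adjusted p = 0.069 and 0.0659). An antisense gene shares 23.4% of the exonic bases of SLC1A5 and had 0 to 5 counts per library. How reads on shared bases were assigned is not given. This low count therefore cannot show whether SLC1A5 lost reads there, and its RPKM may be too low.

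SLC1A4 (chr2:64988490-65023865, plus strand), the related exchanger ASCT1 for serine, alanine and cysteine, had values of 29.4, 33.3 and 23.3 RPKM in 2D, 38.5, 28.7 and 35.2 in 3D_7d and 31.1, 50.6 and 41.8 in 3D_14d. The groups overlapped in every comparison. The fitted difference was 0.25 at day 7 (95% interval -0.17 to 0.68, adjusted p = 0.318) and 0.52 at day 14 (0.10 to 0.95, adjusted p = 0.0539). The day 7 value was 0.07 without 2D replicate 3, 0.14 without 3D_7d replicate 1 and 0.10 with total counts as the scaling. The day 14 value passed the threshold in 4 of 19 alternatives, the furthest without 3D_14d replicate 1 (0.69, adjusted p = 0.00579). The day 14 value was 0.33 with total counts and 0.35 without 3D_14d replicate 2.

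SLC38A1 (chr12:46183063-46269119, minus strand), a sodium-coupled glutamine transporter, was at 32.9, 34.0 and 35.6 RPKM in 2D, 29.4, 23.4 and 21.4 in 3D_7d and 15.1, 26.3 and 28.0 in 3D_14d. Each scaffold sample was below each 2D sample, yet neither difference passed the threshold (-0.47, 95% interval -0.92 to -0.01, adjusted p = 0.0875 at day 7, and -0.56, -1.02 to -0.11, adjusted p = 0.0507 at day 14). Day 14 passed in 9 of 19 alternatives and day 7 in 3, and without 3D_14d replicate 1 the day 14 difference was -0.33 (adjusted p = 0.0782) and the day 7 one -0.48 (adjusted p = 0.00577). Without 3D_7d replicate 1, both passed (-0.63, adjusted p = 0.0484 and -0.59, adjusted p = 0.042). Without 3D_7d replicate 3, 3D_14d replicate 2 or 3D_14d replicate 3, the day 14 difference passed as well (-0.59, -0.67 and -0.72, with adjusted p = 0.0493, 0.0453 and 0.0288).

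SLC38A2 (chr12:46358188-46372773, minus strand), the related carrier that cells raise when amino acids are scarce, was at 20.6, 25.02 and 24.1 RPKM in 2D, 18.2, 16.9 and 19.9 in 3D_7d and 15.6, 23.9 and 29.3 in 3D_14d. The 3D_7d samples lay just below 2D, and the 3D_14d samples spanned the whole range of 2D. Its difference was -0.34 at day 7 (95% interval -0.77 to 0.09, adjusted p = 0.183) and -0.02 at day 14 (-0.45 to 0.41, adjusted p = 0.95), the latter from -0.23 without 3D_14d replicate 3 to 0.20 without 3D_14d replicate 1. At day 7 it passed in 3 of 19 alternatives, among them without 3D_14d replicate 1 (-0.35, adjusted p = 0.029). The rise from day 7 to day 14 (0.32, adjusted p = 0.241) passed without 3D_14d replicate 1 (0.55, adjusted p = 0.0105) and was 0.11 without 3D_14d replicate 3.

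SLC7A1 (chr13:29509414-29595688, minus strand) is CAT1, the uniporter for arginine and lysine. The RPKM were 9.94, 8.48 and 8.97 in 2D, 3.92, 3.98 and 3.69 in 3D_7d and 3.79, 3.93 and 6.02 in 3D_14d. The scaffold samples were all below 2D, and those of the 2 time points overlapped. SLC7A1 was 2.36-fold lower at day 7 (-1.24, SE 0.184, adjusted p = 0.000234) and 1.99-fold lower at day 14 (-0.99, SE 0.183, adjusted p = 0.00128). Between day 7 and day 14 its difference was 0.25 (95% interval -0.15 to 0.64, adjusted p = 0.332), and it moved to 0.0020 or 0.38 when 3D_14d replicate 3 or 1 was left out.

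SLC43A1 (chr11:57484534-57515702, minus strand) is LAT3, a facilitator of leucine and other large neutral amino acids that needs no heavy chain. It had 40.0, 43.6 and 40.4 RPKM in 2D, 16.6, 12.7 and 15.7 in 3D_7d and 9.63, 17.8 and 13.3 in 3D_14d. Both scaffold groups were far below 2D and overlapped each other. SLC43A1 was 2.75-fold lower at day 7 (-1.46, SE 0.203, adjusted p = 0.000149) and 3.05-fold lower at day 14 (-1.61, SE 0.204, adjusted p = 0.000114; -1.41 without 3D_14d replicate 1). Unlike its functional relative SLC7A5, it was not called between day 7 and day 14 (-0.15, 95% interval -0.58 to 0.28, adjusted p = 0.611; -0.39 or 0.0650 when 3D_14d replicate 2 or 1 was left out), and whether SLC43A1 and SLC7A5 differ in that step was not tested. Of the 3 members with an E-box in a promoter, SLC7A5 and SLC1A5 were called higher at day 14 than at day 7, and SLC43A1 was not called. A link between the E-box and these levels was not tested.

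**Figure D2:**
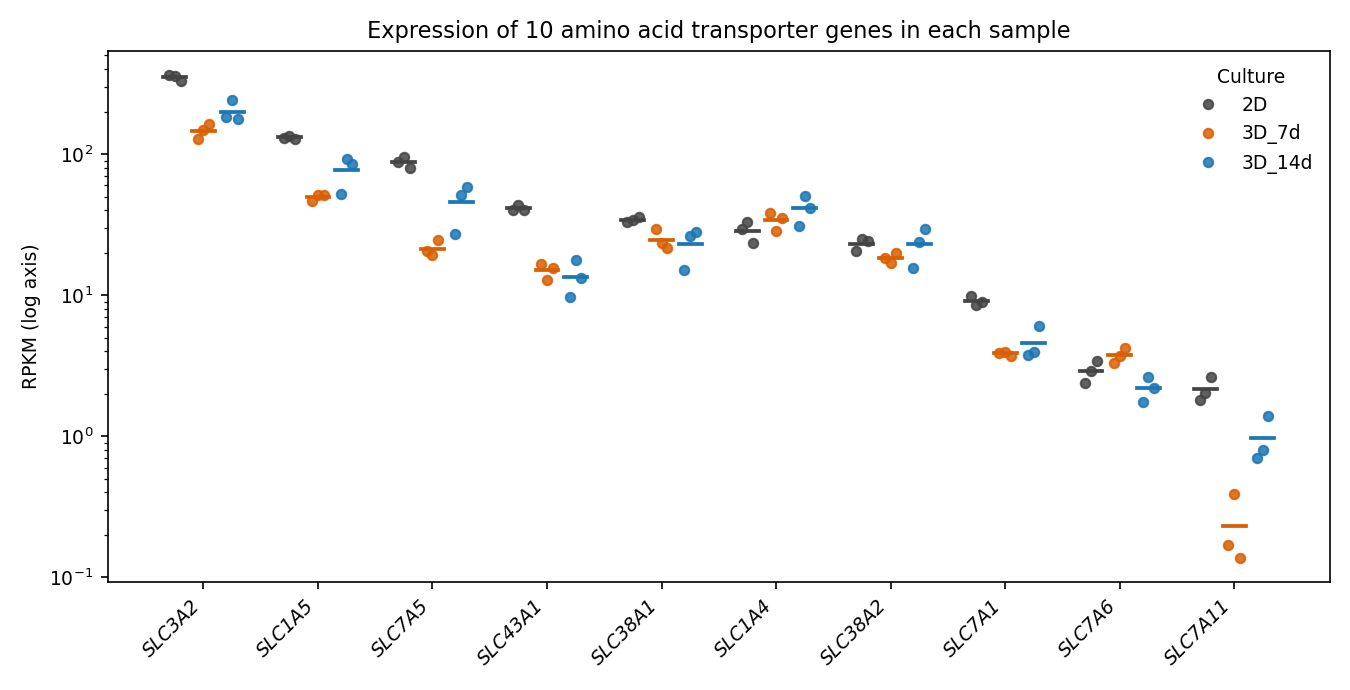
RPKM of the 10 transporter genes (log axis) in each sample, 3 points per culture, with a line at the group mean. SLC3A2 is highest in every culture, SLC7A11 drops to 0.138 to 0.39 RPKM in 3D_7d, and the 3D_14d points of SLC7A5 run from 27.0 to 58.7 RPKM.

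Ordered by RPKM in 2D, SLC3A2 (351 ± 18.6, SD, n = 3) led SLC1A5 (131 ± 2.94), SLC7A5 (87.6 ± 7.79) and SLC43A1 (41.3 ± 1.97), each apart from its neighbour in range. SLC38A1 (34.2 ± 1.33), SLC1A4 (28.7 ± 5.02) and SLC38A2 (23.2 ± 2.35) followed and overlapped their neighbours among these 3, then SLC7A1 (9.13 ± 0.741) alone, and SLC7A6 (2.91 ± 0.529) and SLC7A11 (2.16 ± 0.437), which overlapped. In 3D_7d, SLC3A2 (147 ± 17.0) and SLC1A5 (49.6 ± 2.86) stayed first, while SLC1A4 (34.1 ± 4.97), SLC38A1 (24.7 ± 4.12), SLC7A5 (21.4 ± 2.82) and SLC38A2 (18.3 ± 1.51) formed a run of overlapping neighbours. SLC7A5 thus went from rank 3 to rank 5 and SLC1A4 from rank 6 to rank 3. In 3D_14d, SLC1A5 (76.6 ± 21.7), SLC7A5 (45.7 ± 16.6) and SLC1A4 (41.2 ± 9.79) overlapped as neighbours below SLC3A2 (200.3 ± 35.3). SLC7A11 was last in all 3 cultures. Among tested genes, the SLC3A2 level exceeded that of 99.0% in 2D, 96.4% in 3D_7d and 97.3% in 3D_14d, and SLC7A5 exceeded 93.8%, 75.9% and 86.6%.

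The summed RPKM of the 10 members was 711 ± 31.8 in 2D, 318 ± 17.8 in 3D_7d and 431 ± 86.3 in 3D_14d (SD, n = 3). The samples were at 720.1, 738 and 676, at 305, 309.6 and 338, and at 339.7, 511 and 443. The groups did not overlap, and 3D_14d replicate 1 was barely above the highest 3D_7d sample. Without that replicate, the 3D_14d mean was 477. SLC3A2 alone made up 49.3%, 46.1% and 47.0% of the sum on average.

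The ratio of SLC7A5 to SLC3A2 compares a light chain with its heavy chain within a sample and does not depend on the scaling of libraries. It was 0.243, 0.264 and 0.241 in 2D, 0.159, 0.128 and 0.151 in 3D_7d and 0.147, 0.214 and 0.332 in 3D_14d. The 3D_7d ratios were all below 2D, and the 3D_14d ratios spread over both groups. The difference of the mean log2 ratios was -0.77 for 3D_7d vs 2D (exact permutation test, two-sided, p = 0.1), -0.19 for 3D_14d vs 2D (p = 0.7) and 0.59 for 3D_14d vs 3D_7d (p = 0.3), where 0.1 is the smallest p that 3 against 3 samples allow. Without 3D_14d replicate 1, the 3D_14d vs 2D difference was 0.10.

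The other ratios were chosen after the values were seen and are given as a description. SLC7A5 made up 66.8% ± 1.84 of the summed RPKM of the 6 light chains SLC7A5, SLC7A6, SLC7A7, SLC7A8, SLC7A10 and SLC7A11 in 2D, 34.5% ± 1.70 in 3D_7d and 39.1% ± 9.51 in 3D_14d (SD, n = 3). That sum stood at 0.373 ± 0.0161, 0.424 ± 0.0331 and 0.576 ± 0.101 of the SLC3A2 level, lowest in 2D, where the SLC7A5 share was highest. SLC7A7, the y+LAT1 light chain, was the other abundant one, at 38.4 ± 1.71 RPKM in 2D and 65.3 ± 6.51 in 3D_14d. In 3D_14d its mean was above that of SLC7A5 (45.7 ± 16.6). The ratio of SLC1A5 to SLC1A4 was 4.66 ± 0.763 in 2D, 1.48 ± 0.294 in 3D_7d and 1.85 ± 0.187 in 3D_14d, and that of SLC38A1 to SLC38A2 was 1.48 ± 0.122, 1.36 ± 0.269 and 1.01 ± 0.0840.

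**Figure D3:**
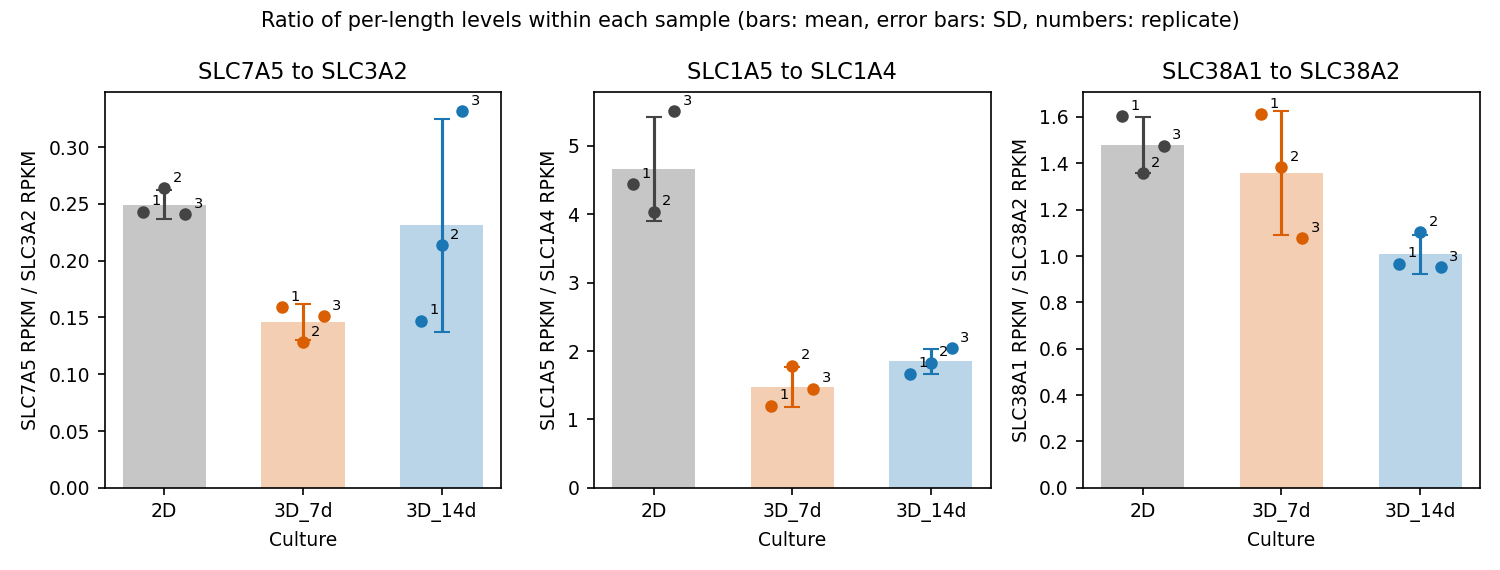
Ratio of RPKM within each sample for SLC7A5 to SLC3A2, SLC1A5 to SLC1A4 and SLC38A1 to SLC38A2 in the 3 cultures (points: samples with their replicate number, bars: mean, error bars: SD, n = 3). The SLC7A5 to SLC3A2 ratio lies between 0.128 and 0.159 in 3D_7d and runs from 0.147 to 0.332 in 3D_14d, and the SLC1A5 to SLC1A4 ratio is above 4 only in 2D.

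Members moved together to different degrees. Over the 9 samples, with each log2 CPM profile centred on its mean, SLC3A2 and SLC1A5 were the closest pair of members (root mean square difference 0.201), and SLC7A5 and SLC3A2 differed by 0.439. By the same measure, the genes outside the list most like SLC7A5 were SLC25A36 (0.233), CCNG2 (0.249) and FOSL2 (0.262). Those most like SLC7A11 were ANKRD65 (0.432), SH2D1A (0.478) and PPM1N (0.506), and those most like SLC38A2 were PIK3CA (0.0761), B3GNT2 (0.115) and ZMYM2 (0.119). The 9 samples share 3 culture conditions, so these values describe the profiles and carry no test.

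The 3 regulators were all lower in 3D_7d and parted at day 14. ATF4, the factor that drives amino acid genes under stress, was at 248, 244 and 245 RPKM in 2D, 80.3, 82.8 and 76.3 in 3D_7d and 251, 218 and 189 in 3D_14d. The 3D_14d samples of ATF4 spread around 2D, and the 3D_7d samples were far below. ATF4 fell by 1.62 on the log2 scale at day 7 (adjusted p = 7.23e-06), differed by -0.16 at day 14 (adjusted p = 0.375; -0.38, adjusted p = 0.0198 with total counts as the scaling; -0.27 and -0.06 when 3D_14d replicate 1 or 3 was left out) and rose by 1.46 between them (adjusted p = 8.68e-05). MYC, a driver of growth, was at 107, 101 and 93.2 RPKM in 2D, 16.3, 21.0 and 23.5 in 3D_7d and 16.6, 28.0 and 25.9 in 3D_14d. MYC stayed low at both times, with log2 fold changes of -2.30 (adjusted p = 8.69e-06) and -2.09 (adjusted p = 2.1e-05) against 2D. NFE2L2, the activator of antioxidant genes, was at 32.2, 33.4 and 31.3 RPKM in 2D, 17.6, 19.9 and 18.7 in 3D_7d and 16.3, 21.5 and 22.0 in 3D_14d, with -0.79 (adjusted p = 0.00095) and -0.70 (adjusted p = 0.00276). Without 3D_14d replicate 1, the day 14 values were -1.89 for MYC and -0.57 for NFE2L2. Between the time points, NFE2L2 was not called (0.09, adjusted p = 0.671; 0.02 to 0.23 when 3D_14d replicate 3 or 1 was left out) and neither was MYC (0.21, adjusted p = 0.439), which passed without 3D_14d replicate 1 (0.43, adjusted p = 0.0462) and was 0.08 without 3D_7d replicate 1 and 0.07 without 3D_14d replicate 2. These are RNA levels, and the activity of the factors was not measured.

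Counts of the lists that follow stand beside 22.2% of all genes called higher and 21.2% lower at day 7, and 19% higher and 17.2% lower at day 14. The lists were chosen with earlier results of these data known, so these counts are a description. From day 7 to day 14, 14.5% of all genes were called higher and 13.6% lower. Of 17 genes of ATF4 and its targets, 16 were tested, and 14 fell and none rose at day 7, 7 fell and none rose at day 14, and 13 rose and none fell from day 7 to day 14. Their median log2 fold changes were -1.74, -0.62 and 1.40. CHAC1, which degrades glutathione, was at 32.1 ± 0.716 RPKM in 2D and 1.41 ± 0.216 in 3D_7d (-4.51, adjusted p = 1.24e-07). PSAT1, an enzyme of serine synthesis, went from 146 ± 9.99 to 46.6 ± 23.5 in 3D_14d (-1.64, adjusted p = 0.0017), and the pseudokinase TRIB3 from 93.5 ± 5.15 to 49.4 ± 13.6 (-0.92, adjusted p = 0.00173). A step back up from day 7 to day 14 was thus called for these 13 genes and for 4 of the 10 transporters, and the 2 counts were not tested against each other. Of the 4 transporter calls, that of SLC3A2 was lost in 11 of 19 alternatives and that of SLC1A5 in 6.

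Of 26 other amino acid carriers of the plasma membrane, 6 passed the filter on low counts. At each time point 2 of these rose, 1 fell and 3 were not called, too few to set against the shares over all genes (22.2% higher and 21.2% lower at day 7), with medians of 0.09 and 0.14. The number that fell was 2 at day 7 without 3D_14d replicate 1 and 2 at day 14 without 3D_7d replicate 2. SLC43A2 (LAT4), a relative of SLC43A1, rose from 2.23 ± 0.158 RPKM to 6.52 ± 0.694 in 3D_7d (1.55, adjusted p = 3.48e-05) and 6.38 ± 1.29 in 3D_14d (1.52, adjusted p = 5.91e-05), opposite in direction to SLC43A1. SLC38A5, a glutamine and glycine carrier, rose at day 7 (0.75, adjusted p = 0.00492) and SLC7A7 at day 14 (0.77, adjusted p = 0.000828). The glycine transporter SLC6A9 fell at day 7 (-4.60, adjusted p = 0.000234), to 0.0581 ± 0.0546 RPKM, and the aromatic amino acid carrier SLC16A10 at day 14 (-1.90, adjusted p = 0.00603).

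The carriers of the lysosome that passed the test against 2D were all higher in 3D. All 9 were tested, 6 rose and none fell at day 7, and 5 rose and none fell at day 14, with medians of 0.72 and 0.64. Without 2D replicate 2, 3 rose at day 14 (1599 of 13214 over all genes), and without 3D_14d replicate 1, 6 rose (2845 of 13335). SLC36A1, a proton-coupled carrier of small amino acids, rose at day 7 (2.17, adjusted p = 3.48e-05). SLC38A9, the lysosomal arginine sensor, rose at day 7 (1.44, adjusted p = 4.42e-05) and day 14 (0.82, adjusted p = 0.00244), and SLC15A4, a histidine and peptide carrier, rose from 33.5 ± 1.72 to 91.8 ± 11 RPKM at day 14 (1.46, adjusted p = 2.13e-05). Of 11 mitochondrial amino acid carriers 9 were tested, 6 rose and 1 fell at day 7, and 2 rose and 1 fell at day 14, with medians of 0.45 and 0.28. Without 2D replicate 1, 3 rose at day 7 (2051 of 13236 over all genes), and likewise 3 without 3D_7d replicate 2 (2224 of 13390). At day 14, 3 rose without 3D_14d replicate 1 (2845 of 13335). The branched-chain amino acid carrier SLC25A44 rose at both times (2.20, adjusted p = 5.37e-06, and 1.28, adjusted p = 0.000168), the aspartate and glutamate carrier SLC25A12 at day 7 (0.87, adjusted p = 0.00181) and the glycine carrier SLC25A38 at day 14 (0.66, adjusted p = 0.00443). SLC25A29, a carrier of basic amino acids like SLC7A1, fell at both times (-1.34, adjusted p = 2.66e-05, and -1.43, adjusted p = 2.6e-05).

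Of 34 genes through which mTORC1, the growth kinase complex, senses amino acids, 33 were tested. At day 7, 6 rose, 6 fell and 21 were not called, close to the shares over all genes (22.2% higher and 21.2% lower), and at day 14, 10 rose, 6 fell and 17 were not called (19% and 17.2% over all genes), with medians of -0.06 and 0.03. The number that fell at day 7 was 10 without 3D_14d replicate 1, 10 with total counts as the scaling and 11 with only the 6 samples of the comparison, and it was 10 at day 14 without 3D_14d replicate 2. The calls over all genes moved in these settings too. Lower at day 7 were 3569 of 13335, 3580 of 13463 and 3897 of 13083 genes, and at day 14 2292 of 13371. The kinase MTOR rose at day 7 (1.47, adjusted p = 5.35e-05), the GTPase RRAGA at both times (0.91, adjusted p = 0.000246, and 0.73, adjusted p = 0.00142) and the lysosomal anchor LAMTOR1 at day 14 (1.31, adjusted p = 0.000184). The leucine sensor SESN2, also an ATF4 target, fell at day 7 (-1.40, adjusted p = 0.000117), FLCN, which activates the Rag GTPases, at both times (-1.39, adjusted p = 0.000138, and -1.26, adjusted p = 0.000365) and RPTOR, the substrate-binding subunit, at day 14 (-1.04, adjusted p = 0.00579).

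Of 17 enzymes that use the carried amino acids 16 were tested, 3 rose and 3 fell at day 7, and 2 fell at day 14, with medians of -0.05 and -0.16. At day 7, 1 rose without 2D replicate 1 (2051 of 13236 over all genes) and 1 without 3D_7d replicate 3 (2217 of 13407). At day 14, 5 fell with total counts as the scaling, where 3248 of 13463 genes were called lower. BCAT1, which starts the breakdown of leucine, fell at both times (-2.10, adjusted p = 3.54e-05, and -1.70, adjusted p = 0.000195), as did GPT2, the mitochondrial alanine aminotransferase (-2.85, adjusted p = 2.91e-06, and -1.26, adjusted p = 0.000354). GOT2, the mitochondrial aspartate aminotransferase, rose at day 7 (0.91, adjusted p = 0.00171), as did the glutathione synthetase GSS (0.56, adjusted p = 0.01). The GSS call was lost without 2D replicate 1, without 2D replicate 3 and without 3D_7d replicate 3 (0.49, 0.48 and 0.41, with adjusted p = 0.0627, 0.0647 and 0.0768).

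**Figure D4:**
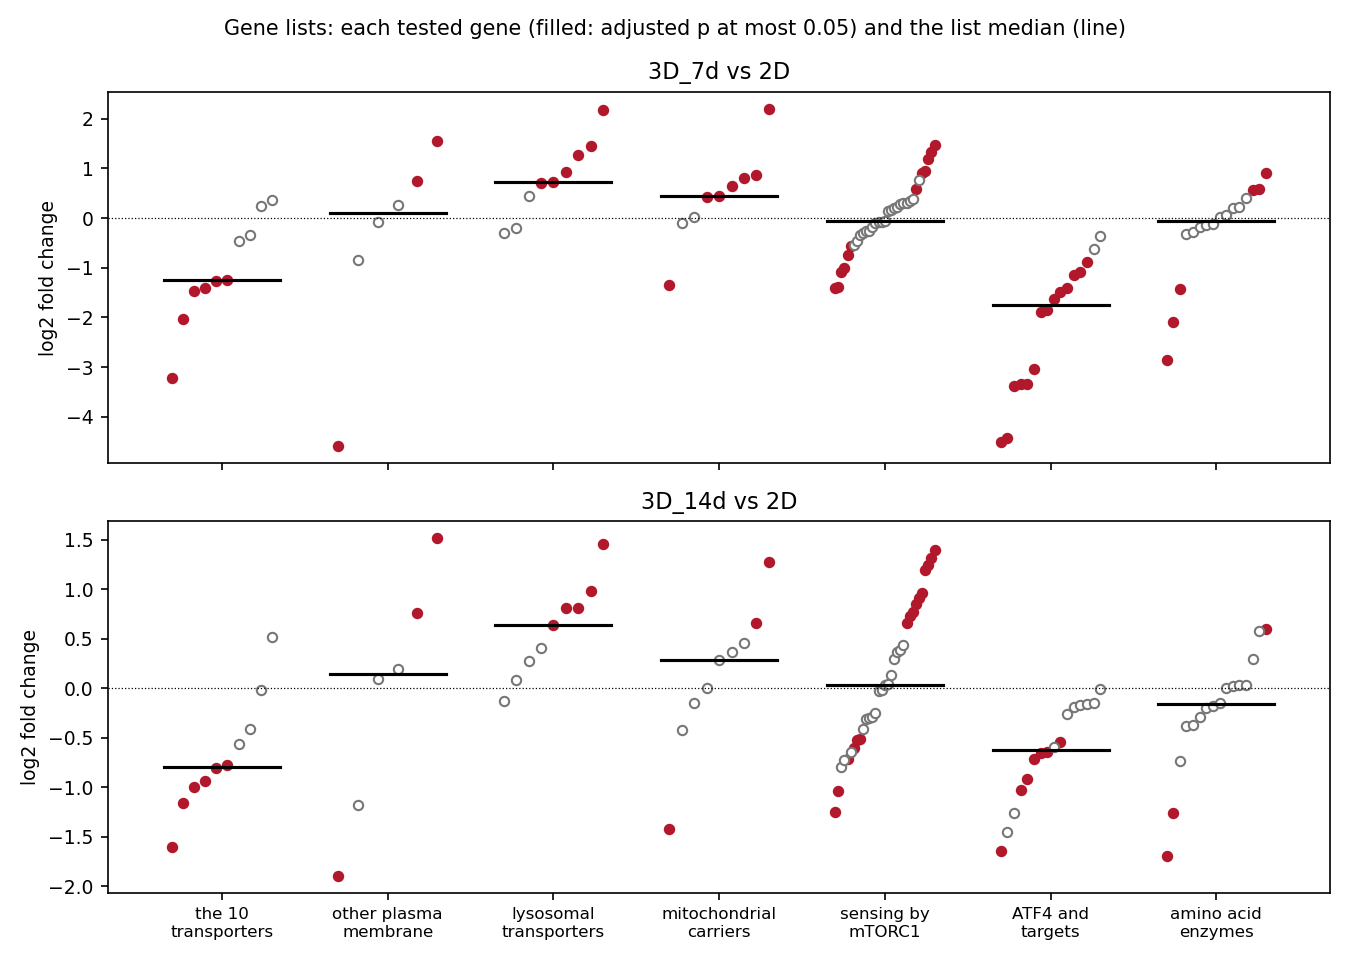
Log2 fold change of each tested gene in 7 gene lists, in 3D_7d vs 2D (upper panel) and 3D_14d vs 2D (lower panel), with filled points for an adjusted p of at most 0.05 and a line at the list median. The medians of the 10 transporters (-1.25 and -0.79) and of ATF4 and its targets (-1.74 and -0.62) lie below 0, and those of the lysosomal carriers (0.72 and 0.64) above 0.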

How the data were processed

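RNAseq of MEC1 cells was analysed in 9 samples, 3 per group (2D, 3D_7d, 3D_14d), grouped by their labels. The authors prepared SMART-Seq libraries, trimmed reads with Trimmomatic (version 0.39), aligned them to GRCh38 with STAR (version 2.5.3a) and assigned them to genes with featureCounts (version 1.6.4). The deposited values are raw counts per gene, with exon length, and were used as deposited. The setting of strand and of multi-mapped reads is not given in the sources used here. The libraries held 54662799 to 85968686 counts.

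The 13463 genes that exceeded a CPM of 1 in 3 or more samples were fitted in R (version 4.3.3) with edgeR (version 4.0.16), with TMM factors, 1 model over the 3 groups and the quasi-likelihood test, with Benjamini-Hochberg adjusted p-values over all genes of a comparison (threshold 0.05). RPKM used the TMM-scaled library size and the deposited exon length, and log2 values per sample a prior count of 2. Ratios were compared with an exact permutation test over samples. Promoters came from RefSeq (GRCh38.p14). On simulated counts for 3D_7d vs 2D with 13170 genes tested and 195 of them changed, the edgeR test recovered 52.6% of genes changed by 1 on the log2 scale and 95.0% of those changed by 2, and 7.64% of its calls were unchanged genes.

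The members and all lists were chosen with earlier results of these data known. Named genes are the 10 members, the 3 regulators, up to 2 genes per list, direction and comparison with 2D with the smallest p-values past the threshold, and the 3 genes nearest in profile to SLC7A5, SLC7A11 and SLC38A2. SLC7A6OS and AC020978.9, which overlap SLC7A6, were added after their values were seen. The 19 alternatives per gene were other scalings (DESeq2 size factors, total counts, TMM without immunoglobulin, ribosomal protein and mitochondrial genes), the Wald test of DESeq2 (version 1.42.0), edgeR's filterByExpr or no filter, only the 6 samples of a comparison, a replicate block, removal of a trend with gene length (loess in R), the block and the trend together, and leaving out each sample in turn. Summed levels under other scalings and without single samples were added after the data had been seen. A B cell marker and an enzyme of these lists are not reported here.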

Additional observations from a re-analysis of the deposited data

Results flagged for a closer look

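For 5 transporter genes, the level in the scaffolds differed between day 7 and day 14, by the edgeR test of 3D_14d vs 3D_7d. Both time points were compared with the same 2D samples, so this is also the difference between their fold changes against 2D. The labels give no culture day for 2D, so 3D culture and time in culture cannot be told apart. SLC7A5 differed by 1.10 on the log2 scale (adjusted p = 0.00519), SLC7A11 by 2.06 (adjusted p = 0.00246), SLC1A5 by 0.63 (adjusted p = 0.0251) and SLC3A2 by 0.45 (adjusted p = 0.0459), all with the lower level at day 7. The calls of SLC3A2 and SLC1A5 were lost in 11 and 6 of 19 alternatives. SLC7A6 differed by -0.77 (adjusted p = 0.0133), with the lower level at day 14. In each of the 5 genes the 3 samples of day 14 lay on 1 side of the 3 samples of day 7, as 39.3% of all genes did in either direction. Groups of 3 samples were not tested for single samples far from the others.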

How the results depend on the processing

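All 6 members called at day 7 kept direction and call in all 19 alternatives, and of 190 member values 184 kept both at day 7, 169 at day 14 and 168 in 3D_14d vs 3D_7d. The number of members called higher at day 14 was 1 with DESeq2, with the length trend removed and with the replicate block and length trend removed (SLC1A4), and 0 to 1 when single samples were left out (1 without 3D_14d replicate 1). The number called lower at day 14 was 2 with a minimum change of 1 on the log2 scale. SLC38A1 was also called lower at day 14 in 9 of 19 alternatives and SLC7A6 in 1, with total counts. The SLC7A11 call was lost in 3 of 19. In 3D_14d vs 3D_7d, the number called higher was 2 with only the 6 samples of the comparison, 2 with that minimum change and 2 to 5 when single samples were left out (2 when 3D_7d replicate 1, 2 or 3 or 3D_14d replicate 2 was the one left out), and the number called lower was 0 with that minimum change and 0 to 1 when single samples were left out (0 without 3D_7d replicate 3). Directions turned for values that had not passed: SLC38A2 at day 14 was 0.0457 with the length trend removed and 0.0286 with the replicate block added, and ran from -0.23 to 0.20 when single samples were left out (0.0046 without 2D replicate 2 and 0.20 without 3D_14d replicate 1). In 3D_14d vs 3D_7d, SLC38A1 ran from -0.25 to 0.15 (0.04 without 3D_7d replicate 1 and 0.15 without 3D_14d replicate 1), and SLC43A1 from -0.39 to 0.0650 (the latter without 3D_14d replicate 1). The log2 difference of the SLC7A5 to SLC3A2 ratio in 3D_14d vs 2D ran from -0.49 to 0.10 when single samples were left out. The summed RPKM in 2D was 773 with total counts as the scaling. That scaling moved the median of all genes to -0.16 at day 7 and -0.18 at day 14 and gave 2156 higher and 3580 lower calls in place of 2985 and 2853 at day 7, and 1603 and 3248 in place of 2557 and 2318 at day 14. The causes were not tested, except that fewer samples enter when 1 is left out.

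Replicate numbers were not treated as pairs. Samples with the same number deviated with correlations of -0.10 to 0.19 over 9 pairs, 2 of them above 0.1, and 6 of 9 samples (all of 2D and 3D_14d, none of 3D_7d) correlated best with a sample of their own number, a hint from the data and not from the design. With the replicate block, 6 members were called lower at day 7 and 6 at day 14, and 3 higher and 1 lower in 3D_14d vs 3D_7d, SLC3A2 being lost (0.44, adjusted p = 0.0523).

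The depth of 54662799 to 85968686 counts limits SLC7A11 most, at 70 to 206 counts in 3D_7d. With 3 samples per group, the exact permutation test of a ratio cannot pass 0.05.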
